A study of Mus musculus with 4 samples.

Results

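Ion channel genes were followed in mouse bone marrow-derived macrophages that had received Regnase-1-targeting morpholinos or a control morpholino. All were then stimulated with lipopolysaccharide (LPS), a component of the outer membrane of gram-negative bacteria. The genes were chosen by symbol alone, from the families of potassium, TRP, CLC, CLIC, P2X, Orai, voltage-gated calcium, LRRC8, anoctamin, Piezo, voltage-gated sodium and proton channels, with the IP3 receptors and the STIM calcium sensors. The rule found 54 of the 11111 genes in the table. Of these, 52 encode channels, CLIC proteins, accessory subunits or channel activators, and 2 match by symbol only: Kcnq1ot1, a long noncoding RNA, and Trpc4ap, an adaptor protein. In the GENCODE M21 annotation of GRCm38, 204 protein-coding genes have a symbol that fits the rule, and 53 of them were in the table, among them 11 of 94 for potassium, 14 of 34 for calcium, 10 of 31 for nonselective cations and 15 of 29 for chloride and other anions. The others were not analysed here.

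Ion channels are membrane proteins that let ions pass down their electrochemical gradients. Macrophages are not electrically excitable in the way neurons are, but potassium channels set their membrane potential and so the drive for calcium entry, and loss of potassium from the cell is a trigger of the NLRP3 inflammasome. Store-operated channels refill the calcium pool of the endoplasmic reticulum, proton channels balance the charge moved by the phagocyte NADPH oxidase, and the lysosomal CLC exchangers take part in acidification and ion balance of lysosomes.

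There were 2 libraries of cells given Regnase-1-targeting morpholinos (Reg1-MOs) and 2 of cells given the control morpholino (Ctrl MO). Cells of both groups came from C57BL/6 mice, were cultured for 7 days with fresh medium on day 4, and took up their morpholino (2 µM, a synthetic antisense oligomer) with Endoporter, a delivery reagent (6 µl/ml), over 24 hours. LPS (10 ng/ml, 4 hours) was given to all 4, so no unstimulated cells were compared. The labels name 2 targeting morpholinos, MO1 and MO2, and the table's Reg1-MOs columns carry those same names, so whether each library received 1 morpholino or both is not settled.

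The libraries held 24652918 and 23369753 reads with Reg1-MOs and 24904180 and 25213695 reads with Ctrl MO. Zc3h12a, which encodes Regnase-1, an endonuclease that cleaves inflammatory mRNAs, had 7799 and 6753 reads with Reg1-MOs and 3407 and 3572 reads with Ctrl MO, a log2 fold change of 1.10 (SE 0.07, adjusted p = 0.000401). The transcript was thus higher with Reg1-MOs, and whether Regnase-1 protein rose or fell was not measured in these data. A morpholino does not lead to RNA cleavage by RNase H, so this transcript level alone does not check the labels. All 12 macrophage markers listed were in the table, with summed levels of 30410 and 29160 RPM (reads scaled to the library size that the table implies) with Reg1-MOs and 29030 and 28640 RPM with Ctrl MO. Among them Ctsd and Cd68 rose (log2 0.46 and 0.34, adjusted p = 0.0101 and 0.022) and Itgam and Lyz2 fell (log2 -0.67 and -0.27, adjusted p = 0.00302 and 0.0366), so the similar sums hold changes in both directions.

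Of the 54 genes, 8 rose and 6 fell with Reg1-MOs at an adjusted p under 0.05 (limma's moderated test on the log2 values of all genes, Benjamini-Hochberg adjustment over the whole table), and 40 did not pass. The 14 that passed were 25.9% of the channel genes, while 12.2% of all genes in the table passed, 6.22% by rising and 6.03% by falling. Channel genes that passed were 4 of 13 under a mean of 100 reads, 5 of 26 between 100 and 1000 reads, and 5 of 15 from 1000 reads on; the percentages for all genes in those ranges were 7.19%, 11.0% and 17.7%. The median log2 fold change of the 54 was 0.01, beside -0.03 for all genes, and its median size regardless of direction was 0.26, beside 0.17. The libraries of the groups did not overlap for 32 of the 54 genes (59.3%), close to the 58.9% of all genes. No test of the genes as a set was made.

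**Figure D1:**
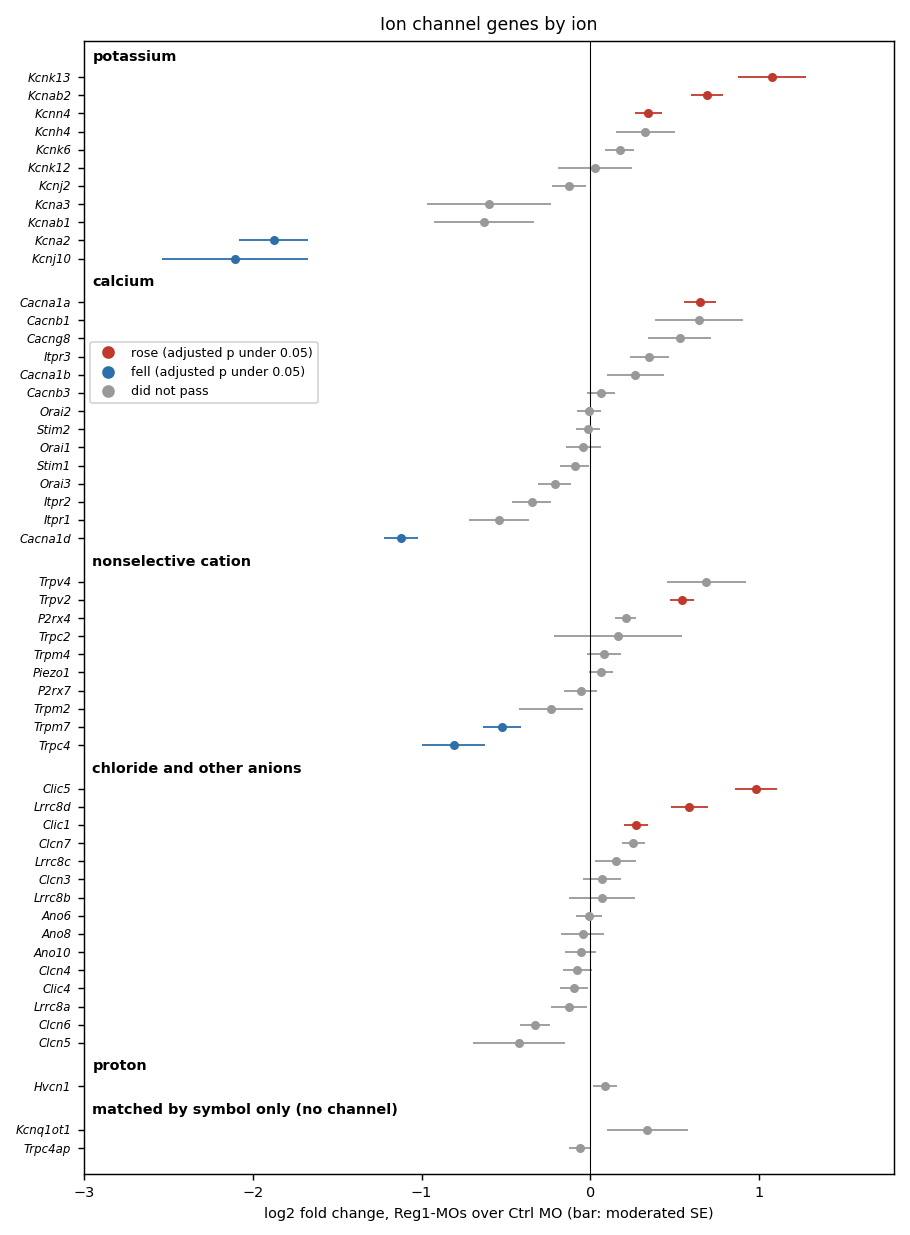
Log2 fold change, Reg1-MOs over Ctrl MO, of 53 genes, with the moderated standard error as a bar and genes sorted within each ion. Red points rose and blue points fell at an adjusted p under 0.05; they run from Kcnk13 at 1.08 to Kcnj10 at -2.11.

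**Figure D2:**
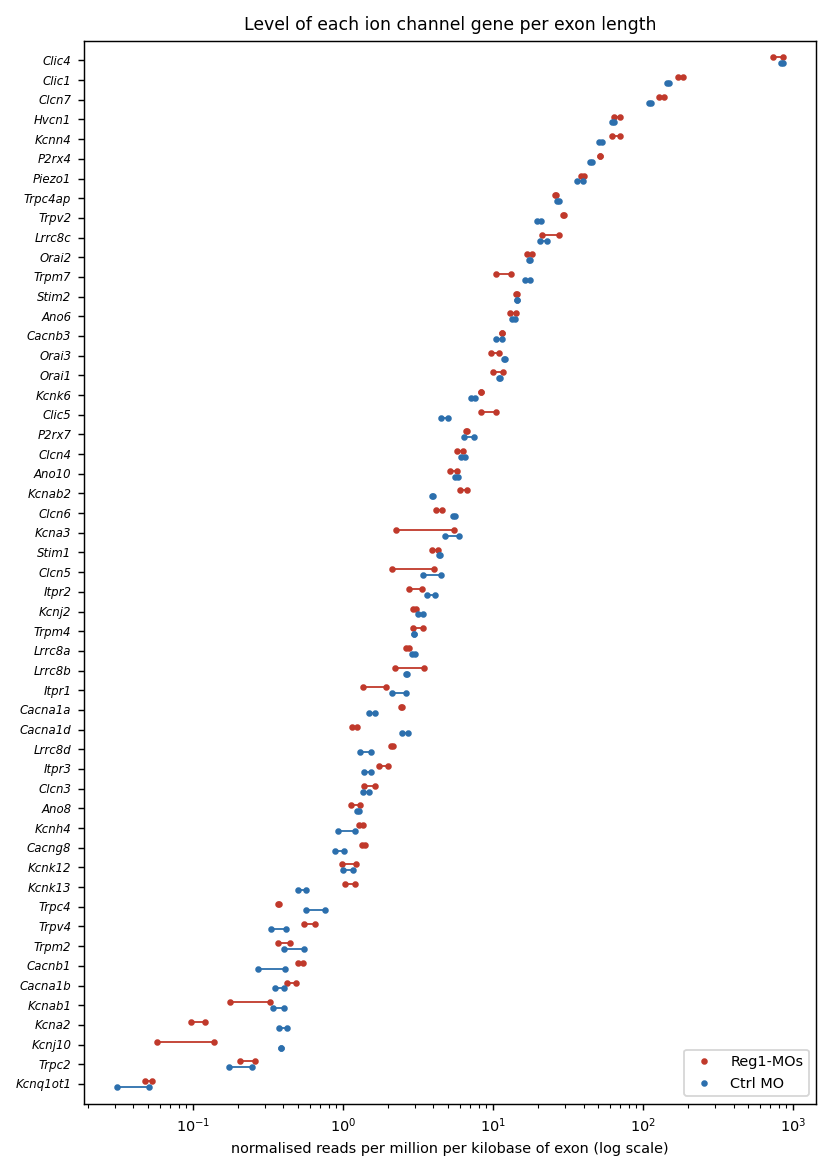
Level of 53 genes per exon length on a log scale, in RPM per kilobase of exon, with the 2 libraries of each group joined by a line. Levels spread from Clic4, with a mean of 791.1 with Reg1-MOs and 843.9 with Ctrl MO, down to Kcnq1ot1, with means of 0.051 with Reg1-MOs and 0.041 with Ctrl MO.

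Among the 11 potassium channel genes, 3 rose, 2 fell and 6 did not pass, so 45.5% of them passed, beside 12.2% of all genes. Kcnn4 (chr7:24370263-24386690, plus strand) encodes KCa3.1, a channel opened by intracellular calcium, and had the highest level of them per exon length, at 65.8 ± 5.95 with Reg1-MOs and 51.8 ± 2.01 with Ctrl MO (RPM per kilobase, SD, n = 2 each). It held 72.0% of the summed potassium channel level with Reg1-MOs and 68.5% with Ctrl MO. Its reads were 6938 and 5597 with Reg1-MOs and 5194 and 4912 with Ctrl MO, a rise of 0.34 on the log2 scale (SE 0.08, adjusted p = 0.0345). Both Reg1-MOs libraries lay above both Ctrl MO libraries, replicate 2 being the nearer. The call was lost without Reg1-MOs replicate 1 (adjusted p = 0.102) and without either Ctrl MO library (0.0872 for replicate 1 and 0.237 for replicate 2).

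Kcnk13 (chr12:99964499-100062682, plus strand) encodes THIK-1, a background potassium channel of the K2P family that sets the resting potential of mouse microglia. It had 62 and 66 reads with Reg1-MOs and 29 and 33 reads with Ctrl MO. The Reg1-MOs libraries lay close together and well above the others, a 2.11-fold rise (log2 1.08, SE 0.20, adjusted p = 0.0154). It did not pass when either Reg1-MOs library was left out (adjusted p = 0.0651 without replicate 1, 0.0594 without replicate 2). The other K2P genes did not pass: Kcnk6, which encodes TWIK-2, a potassium efflux route described in mouse macrophages, had a log2 fold change of 0.17 (adjusted p = 0.22), and Kcnk12 one of 0.03 (adjusted p = 0.95). Kcnk13 made up 10.7% of the K2P level per exon length with Reg1-MOs and 5.94% with Ctrl MO, and Kcnk6 78.8% with Reg1-MOs and 82.0% with Ctrl MO.

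Kcnab2 (chr4:152390742-152477871, minus strand) encodes Kvbeta2, an accessory subunit of voltage-gated Kv1 channels. It had 726 and 595 reads with Reg1-MOs and 415 and 423 reads with Ctrl MO, a 1.61-fold rise (log2 0.69, SE 0.09, adjusted p = 0.00487), with no overlap between groups. Its paralogue Kcnab1 had 29 and 49 reads with Reg1-MOs and 55 and 66 reads with Ctrl MO, a log2 fold change of -0.63 that did not pass (adjusted p = 0.206).

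Kcna2 and Kcnj10 fell. Kcna2 (chr3:107101146-107115005, plus strand), the gene for the voltage-gated pore subunit Kv1.2, had 22 and 25 reads with Reg1-MOs and 85 and 95 reads with Ctrl MO, and was thus 3.67-fold higher in Ctrl MO (log2 -1.88, SE 0.20, adjusted p = 0.00221). Kcnj10 (chr1:172341210-172374085, plus strand), which encodes the inward rectifier Kir4.1 known from glia and kidney, had 14 and 5 reads with Reg1-MOs and 39 and 39 reads with Ctrl MO (log2 -2.11, SE 0.43, adjusted p = 0.021). It had the fewest reads of the potassium channel genes. Its Reg1-MOs libraries differed by 1.27 on the log2 scale, so the size of its fall is less well fixed than that of Kcna2: with replicate 1 of this group left out it was -2.74, and with replicate 2 left out -1.47.

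Kcna3, the gene for Kv1.3 and a neighbour of Kcna2 on chromosome 3, was more abundant than Kcna2 per exon length, at 3.88 ± 2.32 with Reg1-MOs and 5.36 ± 0.822 with Ctrl MO (RPM per kilobase, SD, n = 2 each). It had 82 and 186 reads with Reg1-MOs and 173 and 215 reads with Ctrl MO, so the groups overlapped and the call was not made (log2 -0.60, SE 0.37, adjusted p = 0.318). The log2 fold change turned to 0.05 when Reg1-MOs replicate 1 was left out. It passed when Reg1-MOs replicate 2 was left out, at -1.25 (adjusted p = 0.0357), and when Ctrl MO replicate 1 was, at -0.76 (adjusted p = 0.0458). Kcnh4 and Kcnj2, the gene for Kir2.1, did not pass, at 0.33 (adjusted p = 0.265) and -0.13 (0.443).

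**Figure D3:**
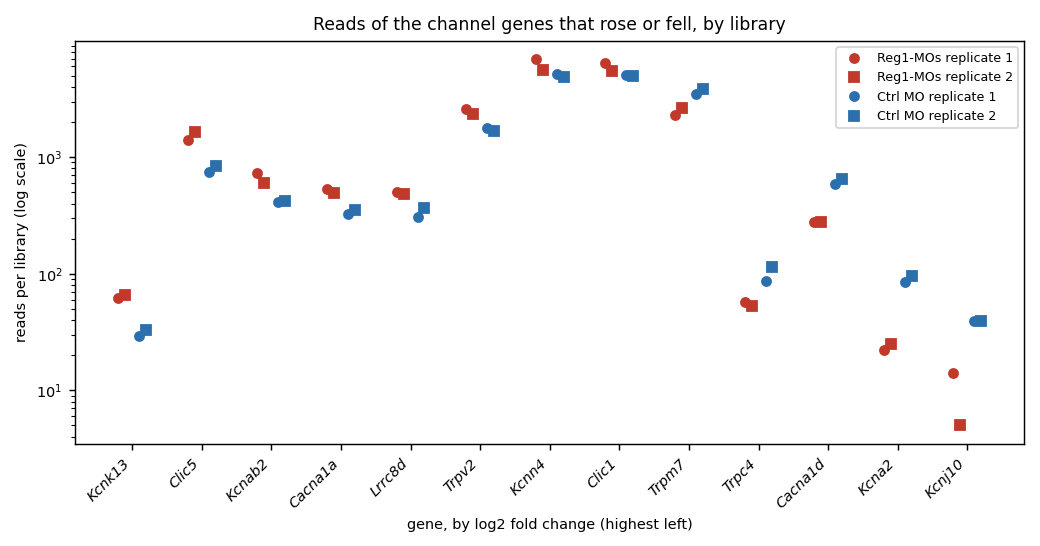
Reads per library, on a log scale, of 13 genes that rose or fell, in order of their log2 fold change. Red symbols are Reg1-MOs libraries and blue symbols Ctrl MO libraries. The colours do not overlap in any of the 13 genes, which were chosen by their adjusted p in these same libraries. Among all genes in the table, 58.9% do not overlap. The fewest reads are those of Kcnj10, at 14 and 5 with Reg1-MOs.

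Markers of stromal cells and fibroblasts were lower in the same libraries. Of 20 such markers listed, 17 were in the table. All 17 fell, beside 6.03% of all genes, with a median log2 fold change of -1.49. Their summed level was 158.5 and 188.7 RPM with Reg1-MOs and 413.0 and 427.0 RPM with Ctrl MO, and none was at 0 reads in any library. Of 9 dendritic cell markers listed, only Itgax, a dendritic cell and macrophage integrin gene, was in the table. It fell as well, with 1328 and 1168 reads with Reg1-MOs and 3644 and 3850 reads with Ctrl MO (log2 -1.55, SE 0.07, adjusted p = 9.29e-05). The part of these markers' cells in the falls of Kcna2, Kcnj10, Cacna1d, Trpc4 and Trpm7 was not tested. In RNA from whole cultures, fewer cells of a type and less RNA per cell cannot be told apart.

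Of the 14 calcium channel genes, 1 rose, 1 fell and 12 did not pass, so 14.3% passed, near the 12.2% of all genes. Both that passed encode pore subunits of voltage-gated channels. Cacna1d (chr14:30039939-30491455, minus strand), the gene for the L-type subunit Cav1.3, had 278 and 278 reads with Reg1-MOs and 594 and 653 reads with Ctrl MO, and was 2.18-fold higher in Ctrl MO (log2 -1.12, SE 0.10, adjusted p = 0.00134). It had the smallest p of all 54 genes. Cacna1a (chr8:84388440-84640246, plus strand), the gene for the P/Q-type subunit Cav2.1, had 536 and 497 reads with Reg1-MOs and 324 and 352 reads with Ctrl MO, a 1.57-fold rise (log2 0.65, SE 0.09, adjusted p = 0.00602). Its adjusted p was 0.0533 without Reg1-MOs replicate 1. The N-type gene Cacna1b did not pass (log2 0.27, adjusted p = 0.334).

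The 2 changes exchanged the leading transcript among the pore genes. Cacna1a made up 60.8% and 58.7% of their summed level per exon length in the Reg1-MOs libraries and 34.6% and 34.2% in the Ctrl MO libraries. Cacna1d made up 28.6% and 29.7% with Reg1-MOs and 57.3% in each of the Ctrl MO libraries. Both lay below every store-operated entry gene per exon length: Cacna1a was at 2.44 ± 0.019 with Reg1-MOs and 1.56 ± 0.092 with Ctrl MO, and Cacna1d at 1.19 ± 0.073 with Reg1-MOs and 2.59 ± 0.175 with Ctrl MO (RPM per kilobase, SD, n = 2 each). Dcp1a overlaps Cacna1d on the opposite strand, and whether the counting used strand is not given in the sources used here. It had 1253 and 1414 reads with Reg1-MOs and 1451 and 1685 reads with Ctrl MO and did not pass (log2 -0.19, adjusted p = 0.322).

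The accessory genes of these channels did not pass. Cacnb3, which encodes a beta subunit, had the highest level of them and a log2 fold change of 0.07 (adjusted p = 0.642). Cacng8, whose product is best known as an auxiliary subunit of AMPA receptors, had 60 and 58 reads with Reg1-MOs and 45 and 39 reads with Ctrl MO (log2 0.53, SE 0.19, adjusted p = 0.11). Cacnb1, with the fewest reads of the calcium group, had 47 and 40 reads with Reg1-MOs and 35 and 23 reads with Ctrl MO (log2 0.64, SE 0.26, adjusted p = 0.149).

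The store-operated machinery was the most abundant part of the calcium group, and none of its 5 genes passed. Orai2, a pore subunit of the plasma membrane channel, had the highest level per exon length in the calcium group, at 17.5 ± 0.877 with Reg1-MOs and 17.6 ± 0.133 with Ctrl MO (RPM per kilobase, SD, n = 2 each). Its reads were 1986 and 1955 with Reg1-MOs and 2024 and 2044 with Ctrl MO (log2 -0.01, SE 0.07, adjusted p = 0.966). The log2 fold changes of the other 4 were -0.04 for Orai1, -0.21 for Orai3, -0.09 for the calcium sensor gene Stim1 and -0.02 for Stim2, with adjusted p of 0.195 to 0.912.

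The 3 IP3 receptor genes, whose products release calcium from the endoplasmic reticulum, differed in direction, and each had an unadjusted p under 0.05 without passing the adjustment. Of all 11111 genes in the table, 3263 had an unadjusted p under 0.05, and 1902 of these did not pass. Itpr1 had 480 and 631 reads with Reg1-MOs and 737 and 921 reads with Ctrl MO (log2 -0.54, SE 0.18, adjusted p = 0.0891). Itpr2 had 789 and 883 reads with Reg1-MOs and 1024 and 1163 reads with Ctrl MO (log2 -0.35, SE 0.12, adjusted p = 0.0945). Itpr3 had 304 and 318 reads with Reg1-MOs and 264 and 238 reads with Ctrl MO (log2 0.35, SE 0.12, adjusted p = 0.0947). The groups did not overlap for any of the 3, as for 58.9% of all genes in the table. Itpr3 took 28.5% of the summed level of the 3 per exon length with Reg1-MOs and 19.1% with Ctrl MO. The size of Itpr1's difference depended on single libraries. It passed without Ctrl MO replicate 1 (log2 -0.70, adjusted p = 0.00304), and was -0.38 when Ctrl MO replicate 2 was left out (0.213). Leaving out a Reg1-MOs library gave -0.28 for replicate 1 (adjusted p = 0.32) and -0.80 for replicate 2 (0.051).

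**Figure D4:**
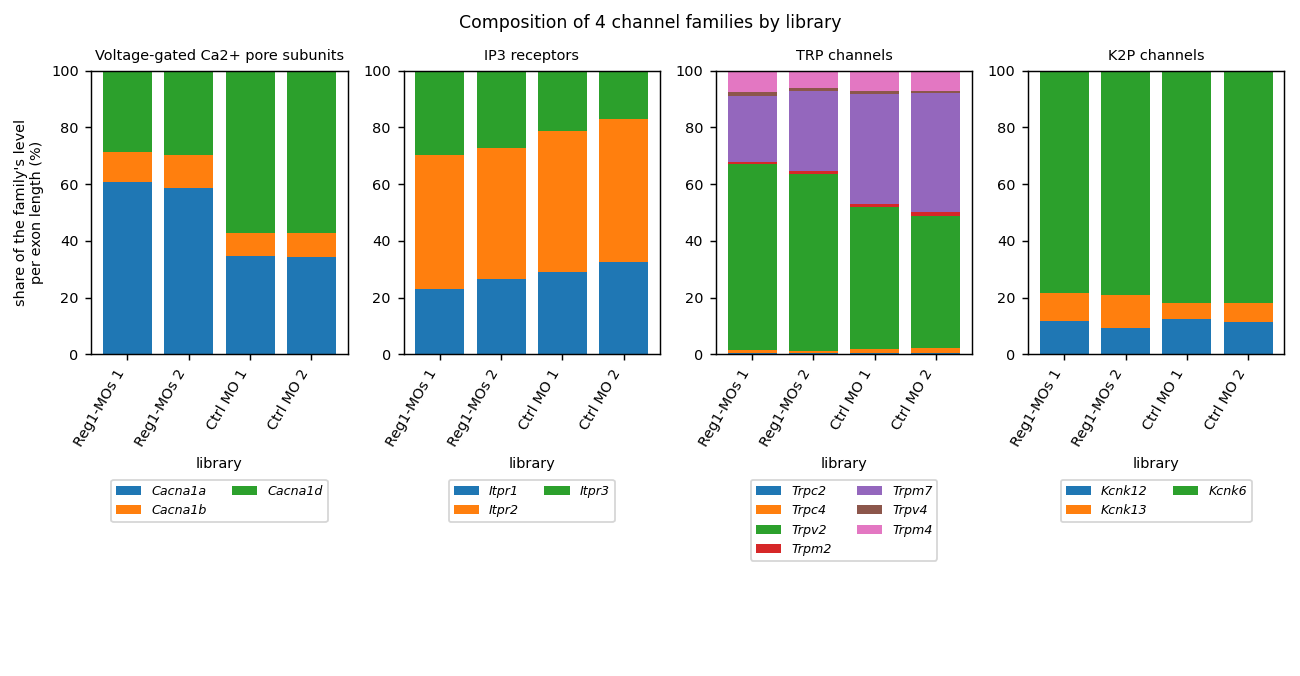
Share of each gene in the summed level per exon length of its family, in percent, by library, with the Reg1-MOs libraries left of the Ctrl MO libraries. Cacna1a is the larger part of the voltage-gated calcium pore genes with Reg1-MOs (60.8% and 58.7%) and Cacna1d with Ctrl MO (57.3% in both libraries); Trpv2 leads the TRP genes in all 4 libraries.

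Of the 10 genes for nonselective cation channels, 1 rose, 2 fell and 7 did not pass. Thus 3 of the 10 passed, beside 12.2% of all genes. Trpv2 (chr11:62574486-62600515, plus strand), which encodes a TRP channel involved in phagocytosis by mouse macrophages, had 2572 and 2329 reads with Reg1-MOs and 1786 and 1670 reads with Ctrl MO, a 1.46-fold rise (log2 0.54, SE 0.07, adjusted p = 0.00416). Trpm7 (chr2:126791565-126876230, minus strand), which encodes a magnesium- and calcium-permeable channel joined to a kinase, had 2303 and 2658 reads with Reg1-MOs and 3503 and 3805 reads with Ctrl MO (log2 -0.52, SE 0.11, adjusted p = 0.0249). Without Reg1-MOs replicate 1 its log2 fold change was -0.36 and did not pass (adjusted p = 0.0836). Trpv2 made up 63.9% of the TRP level per exon length with Reg1-MOs and 48.3% with Ctrl MO, and Trpm7 25.7% with Reg1-MOs and 40.5% with Ctrl MO, so both remained the leading TRP transcripts in both groups.

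Trpc4 (chr3:54156035-54318471, plus strand), a receptor-operated channel gene, fell as well, at a much lower level per exon length than Trpm7. It had 57 and 53 reads with Reg1-MOs and 86 and 115 reads with Ctrl MO (log2 -0.81, SE 0.19, adjusted p = 0.0325). The call was lost on leaving out either Reg1-MOs library (adjusted p = 0.135 for replicate 1, 0.095 for replicate 2) or Ctrl MO replicate 2 (0.219). Trpv4, which encodes an osmo- and heat-sensitive channel, had 51 and 39 reads with Reg1-MOs and 32 and 25 reads with Ctrl MO and did not pass (log2 0.69, SE 0.23, adjusted p = 0.0995). Trpm2 and Trpm4 did not pass either, at log2 -0.23 and 0.08 (adjusted p = 0.455 and 0.643). Trpc2 had the fewest reads of all 54 genes, 14 and 10 with Reg1-MOs and 13 and 9 with Ctrl MO (log2 0.16, adjusted p = 0.811), and it overlaps Xntrpc on the same strand, so its reads cannot be assigned to it with certainty.

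The ATP-gated and mechanically gated channels did not pass. By level per exon length, P2rx4 and Piezo1 ranked 6 and 7 among the 54 genes, and P2rx7 ranked 21. P2rx4, which encodes an ATP-gated channel found largely in lysosomes and at the cell surface, had the highest level per exon length of the nonselective group, at 51.7 ± 0.168 with Reg1-MOs and 44.7 ± 1.05 with Ctrl MO (RPM per kilobase, SD, n = 2 each). Its reads were 7047 and 6432 with Reg1-MOs and 5895 and 6088 with Ctrl MO (log2 0.21, SE 0.06, adjusted p = 0.0695). P2rx7, its neighbour on chromosome 5 and the gene for the ATP receptor that opens the way to NLRP3 activation, had 778 and 701 reads with Reg1-MOs and 732 and 854 reads with Ctrl MO (log2 -0.06, SE 0.10, adjusted p = 0.724). Piezo1, the gene for a stretch-gated channel, had a log2 fold change of 0.06 (SE 0.07, adjusted p = 0.599).

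Of the 15 genes for chloride and other anion channels, 3 rose, none fell and 12 did not pass. Thus 20.0% passed, beside 12.2% of all genes. The CLIC genes, whose products occur as soluble and as membrane-bound proteins, gave 2 of the rises. Clic5 (chr17:44188584-44280172, plus strand) had 1410 and 1637 reads with Reg1-MOs and 748 and 837 reads with Ctrl MO, a 1.97-fold rise (log2 0.98, SE 0.12, adjusted p = 0.00343). Clic1 (chr17:35049966-35058749, plus strand) had 6420 and 5446 reads with Reg1-MOs and 5106 and 4975 reads with Ctrl MO (log2 0.27, SE 0.07, adjusted p = 0.044). Clic1 did not pass when Reg1-MOs replicate 1 was left out (adjusted p = 0.103), nor when either Ctrl MO library was (0.238 for replicate 1, 0.368 for replicate 2).

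Clic4 was by far the most abundant of the 54 genes, with 93406 and 99094 reads with Reg1-MOs and 104322 and 107165 reads with Ctrl MO, and did not pass (log2 -0.10, SE 0.08, adjusted p = 0.48). It made up 67.1% of the anion channel level per exon length with Reg1-MOs and 71.9% with Ctrl MO. Next to it, Clic5 remained a minor transcript of its family, at 0.957% of the CLIC level with Reg1-MOs and 0.475% with Ctrl MO.

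Lrrc8d (chr5:105699969-105832436, plus strand), which encodes a subunit of the volume-regulated anion channel, had 505 and 481 reads with Reg1-MOs and 309 and 368 reads with Ctrl MO and rose (log2 0.59, SE 0.11, adjusted p = 0.0164). It did not pass on leaving out either Reg1-MOs library (adjusted p = 0.094 for replicate 1, 0.0751 for replicate 2) or Ctrl MO replicate 1 (0.0828). The pseudogene Rps15a-ps5 lies within Lrrc8d on the opposite strand, and it rose too, with 46 and 43 reads with Reg1-MOs and 27 and 24 reads with Ctrl MO (log2 0.83, adjusted p = 0.0463). The other 3 LRRC8 genes did not pass. The obligatory subunit gene Lrrc8a had a log2 fold change of -0.13 (adjusted p = 0.466), and Lrrc8b and Lrrc8c, which lie beside Lrrc8d on chromosome 5, had 0.07 (0.848) and 0.15 (0.451). Lrrc8c made up most of the LRRC8 level per exon length, with 76.0% with Reg1-MOs and 75.7% with Ctrl MO.

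None of the 5 CLC genes, which encode intracellular chloride-proton exchangers, passed, but 2 came near the threshold, with opposite signs. Clcn7, the lysosomal exchanger gene, had 12978 and 12969 reads with Reg1-MOs and 11076 and 11307 reads with Ctrl MO (log2 0.25, SE 0.07, adjusted p = 0.0526). Clcn6, the gene of a late endosomal exchanger, had 478 and 478 reads with Reg1-MOs and 626 and 607 reads with Ctrl MO (log2 -0.33, SE 0.09, adjusted p = 0.0556). The groups did not overlap for either, as for 58.9% of all genes in the table. Clcn7 accounted for 89.9% of the CLC level per exon length with Reg1-MOs and 86.6% with Ctrl MO.

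The endosomal exchanger gene Clcn5 was uneven within the Reg1-MOs group, with 468 and 817 reads with Reg1-MOs and 740 and 981 reads with Ctrl MO (log2 -0.42, SE 0.27, adjusted p = 0.348). Its log2 fold change turned to 0.04 when Reg1-MOs replicate 1 was left out, and it passed when Ctrl MO replicate 1 was, at -0.63 (adjusted p = 0.0222). Clcn3 and Clcn4 had 0.07 and -0.08 (adjusted p = 0.713 and 0.585). The 3 anoctamin genes, among them Ano6, the gene for a calcium-activated lipid scramblase, lay between -0.06 and -0.01, and Ano8, with the fewest reads of the anion group, had 172 and 137 reads with Reg1-MOs and 165 and 161 reads with Ctrl MO (log2 -0.05, adjusted p = 0.841).

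Hvcn1, the gene for the voltage-gated proton channel, was among the most abundant channel genes, at 66.9 ± 4.56 with Reg1-MOs and 63.0 ± 1.65 with Ctrl MO (RPM per kilobase, SD, n = 2 each), and did not pass (log2 0.09, SE 0.07, adjusted p = 0.478). Of the genes that match by symbol only, Trpc4ap had a log2 fold change of -0.06 (adjusted p = 0.564) and Kcnq1ot1, which is antisense to Kcnq1, one of 0.34 (adjusted p = 0.389).

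Of the 14 genes that rose or fell, 6 passed with each of the 4 libraries left out in turn: Cacna1d, Kcna2, Kcnab2, Trpv2, Clic5 and Kcnj10. Each of these fits leaves 1 group with a single library, which is assumed to vary like the pair of the other group, so a call kept or lost there also reflects the spread of that pair alone. The sign of the log2 fold change was the same for all 14 in each fit.

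**Figure D5:**
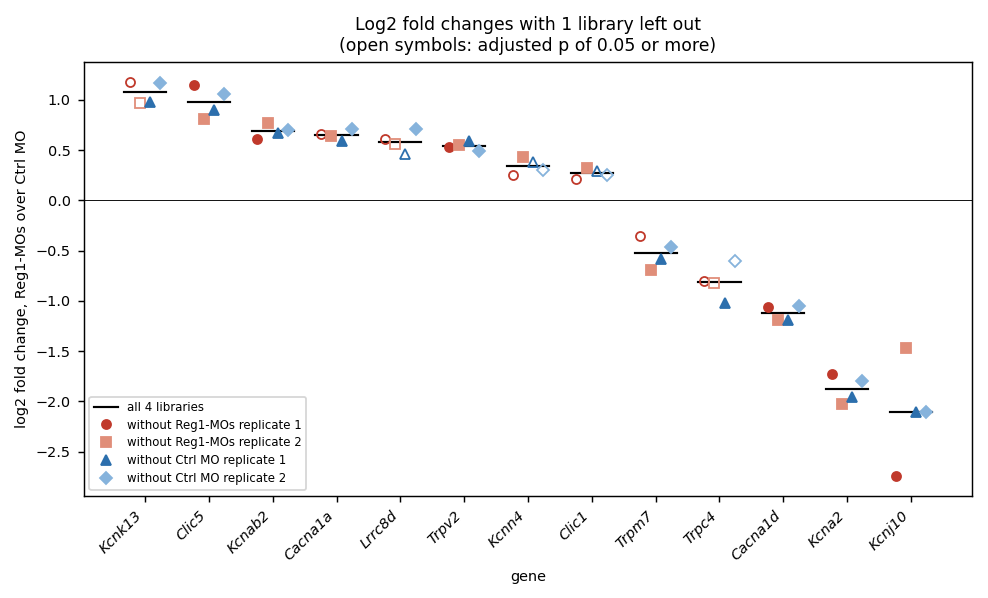
Log2 fold change, Reg1-MOs over Ctrl MO, of 13 genes that rose or fell, with all 4 libraries (line) and with 1 library left out (symbols, filled where the adjusted p was under 0.05). Kcnj10 moves most, between -2.74 and -1.47, and Clic1, Kcnn4, Lrrc8d and Trpc4 each have 3 open symbols.

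The promoters of the genes were searched for 5 strings of letters, on both strands, in windows of 250 bases before and 30 bases from the transcription start in RefSeq (GRCm38.p6). Windows were found for 47 of the 54 genes, 62 windows in all. The CLEAR box core TCACGTGA, known from lysosomal genes bound by TFEB, was in 6.5% of these windows, in 1.9% of those of all genes in the table and in 0.9% of all promoters. The antioxidant response element core TGACNNNGC was in 19.4%, 13.6% and 11.5% of these sets, the AP-1 site TGANTCA, which the preceding string can overlap, in 4.8%, 4.8% and 7.5%, the kappaB site in 74.2%, 65.1% and 48.9%, and the PU.1 core GAGGAA in 29.0%, 25.5% and 26.0%. The windows share genes and base composition, and these shares are a description.

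The 4 windows with the CLEAR core belong to Clcn7 (chr17:25133141-25133420, plus strand), Clcn6 (chr4:148038784-148039063, minus strand), Trpm7 (chr2:126876232-126876511, minus strand) and Orai2 (chr5:136170627-136170906, minus strand). They are shown because their transcripts took different courses: Trpm7 fell, and Clcn7, Clcn6 and Orai2 had log2 fold changes of 0.25, -0.33 and -0.01 that did not pass. Capitals mark the CLEAR core and, in Trpm7, also the antioxidant response element core on the reverse strand.
Clcn7: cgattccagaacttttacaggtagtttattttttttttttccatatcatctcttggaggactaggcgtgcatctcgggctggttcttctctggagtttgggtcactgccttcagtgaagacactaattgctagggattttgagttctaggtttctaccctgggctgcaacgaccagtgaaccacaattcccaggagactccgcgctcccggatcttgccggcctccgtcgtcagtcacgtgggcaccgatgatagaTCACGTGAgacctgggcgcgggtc
Clcn6: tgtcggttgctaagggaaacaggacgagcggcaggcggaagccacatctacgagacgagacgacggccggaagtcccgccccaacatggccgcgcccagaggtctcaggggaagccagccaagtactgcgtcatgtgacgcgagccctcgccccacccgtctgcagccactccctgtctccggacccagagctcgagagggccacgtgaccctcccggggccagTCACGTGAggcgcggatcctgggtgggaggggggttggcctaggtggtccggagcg
Trpm7: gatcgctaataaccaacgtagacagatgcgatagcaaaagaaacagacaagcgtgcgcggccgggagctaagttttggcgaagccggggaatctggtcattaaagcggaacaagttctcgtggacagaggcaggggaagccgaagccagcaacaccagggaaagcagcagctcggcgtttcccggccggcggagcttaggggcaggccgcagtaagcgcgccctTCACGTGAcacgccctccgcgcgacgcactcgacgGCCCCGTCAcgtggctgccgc
Orai2: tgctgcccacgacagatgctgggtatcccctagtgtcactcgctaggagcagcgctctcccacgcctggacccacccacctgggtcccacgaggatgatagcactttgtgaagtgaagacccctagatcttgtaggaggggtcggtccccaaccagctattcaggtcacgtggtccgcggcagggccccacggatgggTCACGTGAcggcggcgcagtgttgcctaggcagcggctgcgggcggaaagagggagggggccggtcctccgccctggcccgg

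Among the genes that rose, Clic5 (chr17:44188322-44188601, plus strand) and Kcnab2 (chr4:152477520-152477799, minus strand) held the antioxidant response element core, marked by capitals, at 2 places in Clic5 and at 1 in Kcnab2. The same string was in the window of Trpm7, which fell. It was also in the windows of 9 genes that did not pass, Clcn3, Clcn5, Kcnab1, Kcnk12, Kcnq1ot1, Lrrc8b, P2rx4, P2rx7 and Trpc2. The other Kcnab2 windows held no match, nor did those of Kcnn4, Kcnk13, Trpv2, Clic1 and Lrrc8d, which also rose. No window was found for Cacna1a, which rose too. Of the 47 genes with windows, 12 held the string.
Clic5: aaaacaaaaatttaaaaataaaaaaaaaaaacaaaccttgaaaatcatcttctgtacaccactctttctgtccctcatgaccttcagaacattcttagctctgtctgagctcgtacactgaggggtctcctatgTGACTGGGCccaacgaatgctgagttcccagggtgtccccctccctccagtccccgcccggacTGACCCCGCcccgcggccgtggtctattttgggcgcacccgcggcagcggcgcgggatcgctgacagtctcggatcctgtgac
Kcnab2: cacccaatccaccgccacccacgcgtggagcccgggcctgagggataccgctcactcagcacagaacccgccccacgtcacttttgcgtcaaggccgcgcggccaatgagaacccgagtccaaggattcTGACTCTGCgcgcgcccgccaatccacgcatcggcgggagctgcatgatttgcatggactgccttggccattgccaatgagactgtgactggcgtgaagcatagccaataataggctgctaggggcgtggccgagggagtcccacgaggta

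Ion transport genes outside the symbol rule were listed for comparison. Of 31 other channel genes in the table, 5 rose and 2 fell, with a median log2 fold change of 0.07. These 7 were 22.6% of the list, beside 12.2% of all genes that passed. Gja1, the gene for the gap junction protein connexin 43, had 198 and 173 reads with Reg1-MOs and 376 and 337 reads with Ctrl MO and fell (log2 -0.90, SE 0.11, adjusted p = 0.00312). Mcoln1, which encodes the lysosomal cation channel TRPML1, had 746 and 706 reads with Reg1-MOs and 523 and 511 reads with Ctrl MO and rose (log2 0.53, SE 0.08, adjusted p = 0.00797). Tmem120a, a membrane protein gene, rose by 0.74 on the log2 scale (SE 0.11, adjusted p = 0.00747).

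Of 23 genes listed for ion pumps, exchangers and cotransporters, none rose and 6 fell, with a median log2 fold change of -0.12. The list includes Slc9a3r1, the gene for an exchanger regulator. The 6 were 26.1% of the list, while 6.03% of all genes fell. Atp2b4, which encodes a calcium pump of the plasma membrane, had 111 and 132 reads with Reg1-MOs and 258 and 255 reads with Ctrl MO (log2 -1.04, SE 0.15, adjusted p = 0.00572). The stromal markers fell in the same libraries as Gja1 and Atp2b4, and their part in these falls was not tested. Slc12a4, a potassium-chloride cotransporter gene, fell by 0.40 on the log2 scale (SE 0.07, adjusted p = 0.0101). Among 23 genes of calcium signalling, 1 fell and none rose: Ppp3r1, the gene for the regulatory subunit of the phosphatase calcineurin (log2 -0.29, SE 0.07, adjusted p = 0.0366). This was 4.35% of the list, beside 12.2% of all genes that passed.

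Of 13 genes of the NLRP3 inflammasome, which senses potassium efflux, 1 rose and 4 fell, with a median log2 fold change of -0.09. These 5 were 38.5% of the list, beside 12.2% of all genes that passed. Il18 had 1977 and 1732 reads with Reg1-MOs and 2901 and 2799 reads with Ctrl MO (log2 -0.58, SE 0.07, adjusted p = 0.00293), while the log2 fold change of Il1b was -0.33 (SE 0.08, adjusted p = 0.0299). Ninj1, which encodes a protein of plasma membrane rupture, rose by 0.34 (SE 0.07, adjusted p = 0.0168).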

How the data were processed

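Poly(A) RNA of 4 libraries was sequenced with a directional kit, per the labels' protocols. cutadapt, FastQC, HISAT2 1.6.3 and the build mm10 are named in the submitters' processing notes; how reads were counted, with or without strand, filtered and normalized is not stated there or in the labels. The deposited table, made by the authors, holds log2 values of 11111 genes. In it, 2 to the power of the value came out as reads plus 0.5 times a constant per library, within 0.01 of a whole read for 100% of the genes, so reads were recovered. Library sizes implied by that scale were 19377000 and 17767798 with Reg1-MOs and 19074804 and 19058462 with Ctrl MO.

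The deposited log2 values of all genes were tested unfiltered with limma 3.58.1 (R 4.3.3), moderated with a variance trend, two-sided, group as the only term, Benjamini-Hochberg over the table, threshold 0.05 (5.47 prior and 2 residual degrees of freedom). All 54 genes were tested. SE is the moderated standard error. Levels per exon length are normalised RPM per kilobase of merged GENCODE M21 exons. The fit was tested on simulated data, with changes larger than most of those reported here and only in genes averaging at least 50 reads. That test does not cover smaller changes or genes of fewer reads. The labels do not say whether replicates were separate mice or cultures, so the p-values reflect only how far these libraries spread, which can be technical, and counting error alone is larger for genes of few reads. The replicate numbers are not stated to pair libraries, and no pairing was used. The 11 alternatives were a replicate block, each library left out, equal totals, quantile normalization, no variance trend, voom weights, an offset of 8 reads and a minimum mean of 50 reads.

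Genes were named if they passed, had an unadjusted p under 0.05, or had the highest level, smallest p or fewest reads for their ion, and up to 3 by smallest p per related list. Other genes were named after their values were seen. The members and lists were chosen with earlier results of these data known. Values of 2 genes counted here are not reported.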

Additional observations from a re-analysis of the deposited data

How the results depend on the processing

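The count of channel genes that rose was 8 and lay between 3 and 6 with 1 library left out; the count that fell was 6 and lay between 3 and 8. Both were lowest, at 3 and 3, without Reg1-MOs replicate 1. Without the variance trend 3 rose and 2 fell, when 3.39% of all genes passed. With a replicate block 12 rose and 12 fell, when 30.8% of all genes passed, and all 14 genes of the test without it were among these. Deviations of same-numbered libraries from their group means had a correlation of 0.314 over 9476 genes, but with 2 pairs and no statement in the labels this does not show a pairing. The counts stayed within 1.5 times of 8 and 6 under equal totals, quantile normalization, voom weights, an offset of 8 reads and a minimum mean of 50 reads, which left 47 genes. The median log2 fold change of the channel genes lay between -0.01 and 0.03 under all 11 alternatives. Of the 14 genes that passed, 3 did so in every alternative they entered (Cacna1d, Kcna2 and Kcnab2); without the variance trend Trpv2, Clic5 and Kcnj10 had adjusted p of 0.0557, 0.0584 and 0.0906. Of the 40 that did not pass, 10 passed in some alternative. All of these 10 passed with the replicate block, when 30.8% of all genes passed. The causes of these differences were not tested. The mean was under 50 reads for 7 of the 54 genes, and the smallest change that could be detected at that depth was not measured.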

Other observations

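The Reg1-MOs libraries differed from each other by more than 0.5 on the log2 scale in 4 of the 47 channel genes that averaged 50 reads or more, and the Ctrl MO libraries in 1 of 47. Among all genes of that depth, 3.59% had Reg1-MOs libraries that far apart. Kcna3, with 82 and 186 reads, and Clcn5, with 468 and 817 reads, showed the widest gaps with Reg1-MOs.

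Of 14 neutrophil markers listed, 12 were in the table, with summed levels of 661.1 and 546.6 RPM with Reg1-MOs and 681.3 and 752.7 RPM with Ctrl MO. Of these 12, 1 fell (8.33%, beside 6.03% of all genes). It was Mmp9, with 598 and 427 reads with Reg1-MOs and 915 and 902 reads with Ctrl MO (log2 -0.81, adjusted p = 0.00728). Of 8 mast cell and basophil markers listed, only Kit was in the table, and it fell with a log2 fold change of -0.67 (adjusted p = 0.0462). Of the 3 endothelial markers in the table, Vwf rose by 0.68 (adjusted p = 0.00279), while Kdr and Pecam1 were lower in both Reg1-MOs libraries without passing (log2 -0.35 and -0.54, adjusted p = 0.0922 and 0.0648), and the median was -0.35. The lymphocyte and the erythroid and megakaryocyte markers did not pass, with 2 and 3 genes in the table. Their part in the channel results was not tested.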
